A study of Mus musculus with 9 samples.

Results

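The genes measured here encode the enzymes and membrane proteins of the lysosome and the subunits of the vacuolar proton pump that acidifies it, read in mouse adipose tissue by RNA sequencing. The rule for choosing them is a list of gene names. Of 38 genes named, 35 were among the 3958 genes of the table used here, and Glb1, Atp6v0c and Neu1 were not analysed here. The 35 listed genes comprised 10 proteases, 4 glycosidases, 7 genes of lipid breakdown, its activators and cholesterol export, and 5 membrane proteins. The proton pump was represented by 4 genes of the membrane sector V0, 3 genes of the cytosolic sector V1 and 2 accessory proteins.

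Lysosomes break down proteins, sugars, nucleic acids and lipids that arrive by endocytosis, phagocytosis or autophagy. Their hydrolases work at acid pH, which the vacuolar proton pump maintains: the V1 sector hydrolyses ATP and the V0 sector carries protons across the membrane. In adipose tissue, macrophages are rich in lysosomes and degrade lipid released by fat cells, and fat cells use the same machinery in autophagy. Many lysosomal genes are known targets of the transcription factor TFEB, which binds an E-box with the core CACGTG in their promoters.

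The tissue is labelled adipose tissue of male C57BL/6J mice, an inbred strain that becomes obese on fatty food, taken at day 21. The series asks how electroacupuncture, a current passed between acupuncture needles, alters fat tissue of mice made obese by a high-fat diet. Its design names a normal diet (ND), a high-fat diet (HFD) and a high-fat diet with electroacupuncture (HFD+EA). Only the EA libraries (numbers 5, 7 and 8) are labelled with that treatment. For the others the titles give only the codes CPX (libraries 4, 6 and 8) and MPX (libraries 2, 5 and 7), without a diet, so differences are described by these codes alone. The labels give no age, fat depot, housing or batch, and do not say that each library is a separate mouse. The p-values therefore reflect the variation among the libraries, which may be partly technical. The extraction protocol speaks of another organ, the retina; 0 of 9 retina markers were listed, and all 15 adipocyte markers were.

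Listed counts ran from 12115183 to 14208853 per library. They cover only the most abundant genes and are not sequencing depths. Levels are in CPM, counts scaled to the listed total of each library after TMM scaling, a correction for differences in composition between libraries. CPX 6 stood apart before any comparison was made: its 15 adipocyte markers summed to 9071 CPM, against 35758 to 100660 CPM in the other 8 libraries, and its 13 listed B cell and lymph node markers summed to 14798 CPM, against at most 5957 CPM. CPX 4 had the lowest TMM factor, 0.753, against 0.981 to 1.10.

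The promoter sequence of these genes is shown first. The E-box core was not used to choose them, but many lysosomal genes are known targets of TFEB. Its share among them is therefore a description and no independent support. RefSeq promoter entries (build GRCm38.p6, 250 bases before to 50 bases after the annotated start) were found for 30 of the 35 genes, and Ctsb, Asah1, Npc1, Atp6v1b2 and Atp6v1h had no entry. CACGTG reads the same on both strands, and the longer form TCACGTG, searched on both strands, always contains it. CACGTG was found for 10 of the 30 genes (33.3%), against 12.1% of 3115 listed genes with an entry and 8.09% of 27025 genes with one. TCACGTG was found for 9 of the 30 (30%), against 7.74% and 4.29%. The 10 genes were Ctsa, Ctsd, Ctsl, Lgmn, Gaa, Lamp1, Atp6v0b, Atp6v0d1, Atp6v0e and Atp6v1a. A match describes these letters only; binding was not measured.

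Below, 4 stretches of 96 bases are printed, from 100 to 5 bases before the start, none of which overlaps an exon in GENCODE M21. Lamp1 holds 4 copies in this stretch and Atp6v0b holds 2. Smpd1, a gene of the comparisons, and Ctss, one of the genes that varied most between libraries, hold none. Capitals mark CACGTG, and all are written 5′ to 3′ on the strand of the gene.
Lamp1 (chr8:13159061-13159156, plus strand): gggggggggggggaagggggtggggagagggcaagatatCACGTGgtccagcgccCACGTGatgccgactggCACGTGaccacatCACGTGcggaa
Atp6v0b (chr4:117887334-117887429, minus strand): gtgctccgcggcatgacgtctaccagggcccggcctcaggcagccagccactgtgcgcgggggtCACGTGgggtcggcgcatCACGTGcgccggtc
Smpd1 (chr7:105554260-105554355, plus strand): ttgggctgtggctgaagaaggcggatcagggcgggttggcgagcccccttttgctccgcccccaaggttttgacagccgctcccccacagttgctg
Ctss (chr3:95526686-95526781, plus strand): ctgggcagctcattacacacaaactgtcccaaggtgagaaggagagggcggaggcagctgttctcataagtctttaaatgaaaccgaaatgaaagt
In Lamp1 the 4 copies began 61, 45, 28 and 15 bases before the start, and in Atp6v0b the 2 copies began 36 and 18 bases before it.

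Per kilobase of gene model, the most abundant transcripts were those of Psap, the precursor of the saposins that help enzymes reach sphingolipids, at 996 CPM per kb averaged over the 9 libraries. Ctsb, a cysteine protease, stood at 471 CPM per kb and Ctsd, an aspartic protease, at 444.5 CPM per kb. The membrane proteins Laptm4a and Lamp1, the latter a main glycoprotein of the lysosomal membrane, followed at 337 and 331 CPM per kb. Npc1, which exports cholesterol from the lysosome together with Npc2, was the lowest of the 35 at 7.30 CPM per kb, and Npc2 stood at 131.8 CPM per kb. The proton pump genes lay between 12.0 (Atp6v1h) and 87.8 CPM per kb (Atp6v0d1). The gene model length appears to count all annotated exonic bases, which can exceed the length of a transcript, so this order is approximate. In CPM alone, averaged over the 9 libraries, Ctsb (2850) stood above Psap (2734) and Npc2 (716.5) above Laptm4a (597.4). Libraries are given below in the order CPX 4, 6 and 8, MPX 2, 5 and 7, and EA 5, 7 and 8. Psap was at 1652, 3140 and 2108 CPM in CPX, at 3582, 2624 and 2502 CPM in MPX and at 2652, 2518 and 3827 CPM in EA, with means of 2300 ± 762, 2903 ± 591 and 2999 ± 720 CPM (SD, n = 3 in each group). It was lowest in CPX 4 and highest in EA 8. Ctsb was at 3100, 1714 and 2977 CPM in CPX, at 3522, 2566 and 2877 CPM in MPX and at 2691, 2249 and 3950 CPM in EA. Ctsd was at 1447, 553.0 and 887.9 CPM in CPX, at 1151, 1195 and 1208 CPM in MPX and at 854.3, 640.7 and 1468 CPM in EA. Both proteases were lowest in CPX 6 and highest in EA 8. The exons of Ctsd share 34.4% of their bases with Gm49369 on the same strand, and those of Ctsb share 12.8% with Fdft1 on the opposite strand. Laptm4a was at 823.7, 396.8 and 726.8 CPM in CPX, at 667.3, 534.1 and 581.0 CPM in MPX and at 591.6, 518.5 and 536.5 CPM in EA. Lamp1 was at 1094, 748.0 and 1012 CPM in CPX, at 923.9, 675.8 and 845.2 CPM in MPX and at 901.1, 747.0 and 1020 CPM in EA. Both membrane proteins were highest in CPX 4 under TMM scaling. In all 5 genes the ranges of the 3 groups overlapped in every comparison. The rank of CPX 4 depended on the scaling. It was the highest library for 8 of the 35 genes under TMM (27.1% of all genes) and for 2 with column sums (11.8%).

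Several levels differed widely between libraries of 1 group. The 35 genes summed to 20912 CPM in EA 8 and to 18369 CPM in MPX 2, and to between 12718 (EA 7) and 14913 CPM (CPX 4) in the other 7 libraries. EA 8 was the highest of the 9 libraries for 16 of the 35 genes (45.7%), whereas it was the highest for 6.47% of all listed genes. Under 3 other scalings this count was 17, 18 and 22 genes, an alternative added after the values were seen. The 16 genes included 7 proteases (Ctsa, Ctsb, Ctsc, Ctsd, Ctsz, Lgmn and Tpp1), 3 glycosidases (Hexa, Gusb and Man2b1) and 4 genes of the lipid group (Lipa, Asah1, Psap and Grn), besides Scarb2 and Atp6ap1. Of the 7 V0 and V1 genes 0 were highest in EA 8, beside the 6.47% of all genes; of 6 pump genes outside the 35, Tcirg1 and Atp6v0a2 were. On the log2 scale the proteases of EA 8 stood on average 0.86 above their mean over the 9 libraries, those of MPX 2 0.46 above it, and those of the other 7 libraries between -0.30 and 0.0038. The V0 genes of EA 8 stood at -0.04, its V1 genes at 0.05 and the 6 other pump genes at 0.31.

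EA 8 also held the highest sum of general macrophage markers. Of 21 macrophage and myeloid markers 14 were listed, none at 0 in any library, and they summed to 7873 CPM in EA 8. Their summed level ranged from 1730 to 5676 CPM in CPX, from 1557 to 4539 CPM in MPX, where MPX 2 was the highest, and from 3298 to 7873 CPM in EA. The markers of lipid-associated macrophages (7 of 12 listed) were instead highest in MPX 2, at 13842 CPM, against 13249 CPM in EA 8. They ranged from 4106 to 12623 CPM in CPX, from 10809 to 13842 CPM in MPX and from 10491 to 13249 CPM in EA. Cd36 is counted both in this list and among the adipocyte markers, so the sums of these lists are not separate. CPX 6 was the lowest library in both, at 4106 and 9071 CPM. The B cell and lymph node markers (13 of 15 listed) summed to between 1724 and 14798 CPM in CPX, between 724 and 1339 CPM in MPX and between 1962 and 5957 CPM in EA. These sums weigh the most abundant markers most. On the log2 scale the 13 markers stood on average at -2.6, 4.4 and -1.3 from their mean over the 9 libraries in CPX 4, 6 and 8. They stood between -3.2 and -2.3 in MPX and between 1.7 and 3.3 in EA. Adipocyte markers summed to between 9071 and 100660 CPM in CPX, between 55893 and 65812 CPM in MPX and between 35758 and 54916 CPM in EA. The part of these markers in the levels of the lysosomal genes was not tested. In whole tissue, fewer cells of a type and less RNA per cell cannot be told apart.

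**Figure D1:**
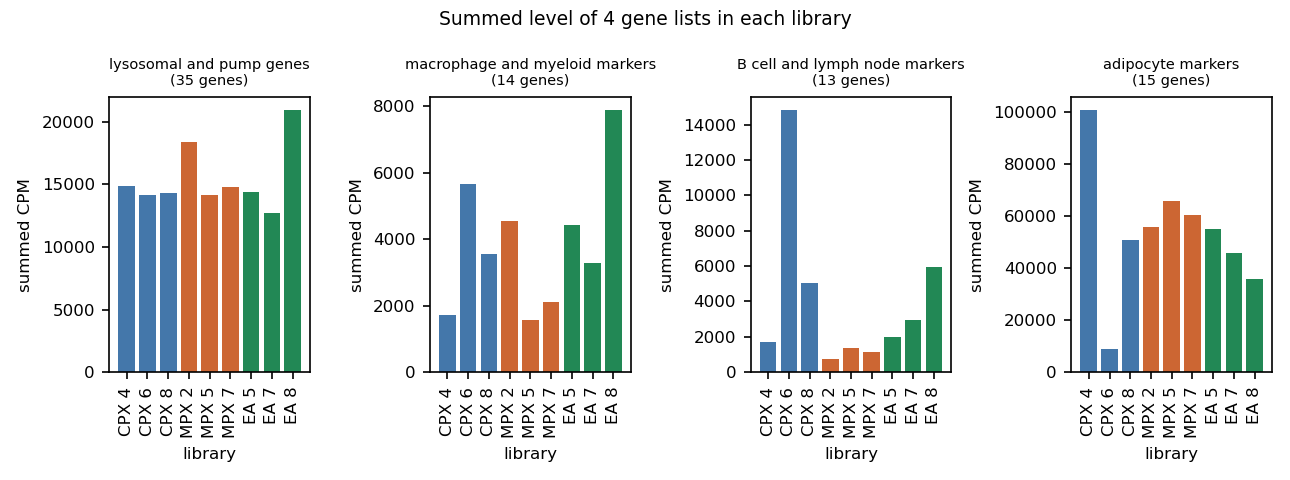
Bars show the summed level of 4 gene lists in each of the 9 libraries, in CPM, with blue for CPX, orange for MPX and green for EA. EA 8 is the highest library for the 35 lysosomal and pump genes (20912 CPM) and for the macrophage markers (7873 CPM), and CPX 6 is the highest for B cell markers and the lowest for adipocyte markers.

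**Figure D2:**
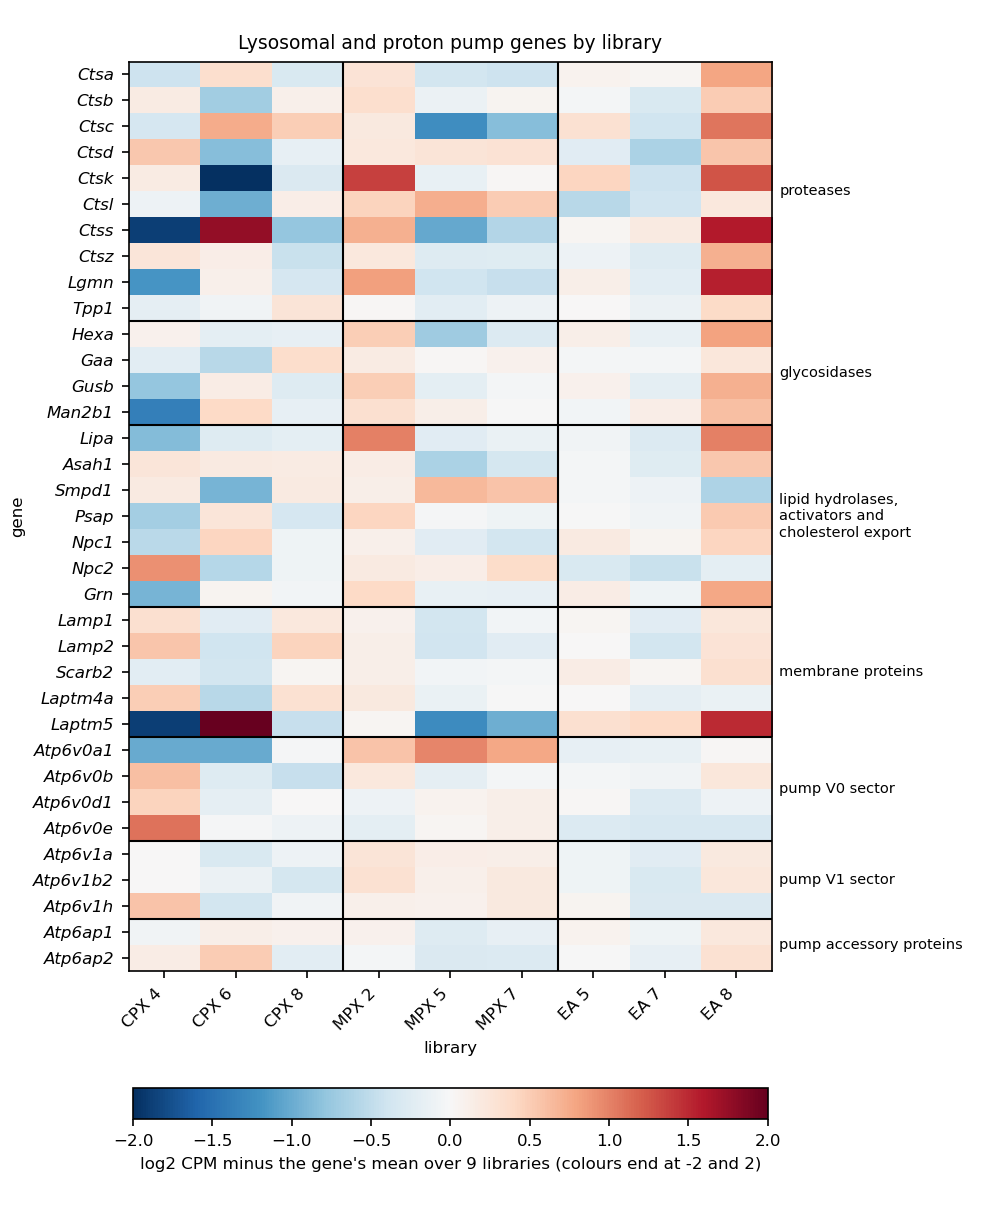
Each row is 1 of the 35 genes, grouped by role, and each column 1 library; the colour gives log2 CPM minus the mean of the gene over the 9 libraries, red above and blue below. The proteases, glycosidases and lipid genes are mostly red in EA 8 and MPX 2, Laptm5 and Ctss are darkest red in CPX 6 and EA 8, and Atp6v0a1 is red in all 3 MPX libraries.

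The remaining genes are given by their means in CPX, MPX and EA, in that order, with the SD over 3 libraries. Hexa, a subunit of the enzyme that trims gangliosides, averaged 221 ± 24.1 CPM in CPX, 222 ± 95.9 in MPX and 292 ± 104 in EA. Gusb, which cleaves glucuronic acid from sugar chains, averaged 107 ± 33.3, 138 ± 36.0 and 151 ± 50.0 CPM, and Man2b1, a mannosidase, 216 ± 116, 276 ± 32.9 and 297 ± 71.7 CPM. Hexa, Gusb and Man2b1 were each highest in EA 8 and their ranges overlapped in all 3 comparisons. Gaa, which breaks down glycogen, averaged 169 ± 55.1, 191 ± 8.94 and 187 ± 20.4 CPM and was highest in CPX 8. Ctsz, a carboxypeptidase, averaged 292 ± 69.0, 275 ± 54.0 and 329 ± 127 CPM, and Tpp1, which removes tripeptides from the ends of proteins, 177 ± 28.5, 165 ± 13.6 and 189 ± 35.1 CPM. Both proteases were highest in EA 8. Npc1 averaged 76.1 ± 25.4, 69.1 ± 11.9 and 89.5 ± 12.0 CPM. Its partner Npc2 was at 1281, 462.4 and 640.5 CPM in CPX, at 776.5, 746.6 and 884.6 CPM in MPX and at 556.1, 501.4 and 599.5 CPM in EA. All 3 EA libraries of Npc2 lay below all 3 MPX libraries. Lamp2, the partner of Lamp1 in the membrane, averaged 489 ± 156, 371 ± 67.8 and 408 ± 87.6 CPM. In the pump, Atp6v0b of the proton-carrying ring averaged 119.5 ± 50.1, 116.7 ± 16.0 and 120.5 ± 13.8 CPM, and Atp6v0d1, which couples V0 to V1, 169 ± 39.3, 159 ± 12.8 and 144 ± 14.1 CPM. Both V0 genes were highest in CPX 4 under TMM scaling, a rank that depended on the scaling. Atp6v1h, a regulatory V1 subunit, averaged 123.4 ± 42.6, 125.8 ± 5.18 and 103.1 ± 14.9 CPM, and its EA libraries (94.3 to 120.3 CPM) lay below its MPX libraries (122.3 to 131.7 CPM). The accessory protein Atp6ap1 averaged 228 ± 15.7, 206 ± 26.5 and 232 ± 24.1 CPM.

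The genes that varied most between libraries were Laptm5, Ctsk and Ctss. Laptm5, a lysosomal membrane protein of blood-derived cells, was at 63.3, 1174.8 and 170.2 CPM in CPX 4, 6 and 8, at 240.6, 97.2 and 118.9 CPM in MPX 2, 5 and 7, and at 290.3, 306.9 and 658.7 CPM in EA 5, 7 and 8. Its highest library was 18.5 times its lowest. Ctss, a protease that cleaves the invariant chain during antigen presentation, was at 56.7, 702.2 and 121.2 CPM in CPX, at 342.5, 102.5 and 139.0 CPM in MPX and at 213.0, 235.8 and 623.0 CPM in EA, in the same library order. Both were highest in CPX 6 and EA 8, the libraries with the highest sums of B cell and of macrophage markers. Ctsk, a collagen-degrading protease, was at 139.5, 23.8 and 102.0 CPM in CPX, at 321.5, 112.3 and 127.3 CPM in MPX and at 168.7, 93.5 and 297.0 CPM in EA. It was lowest in CPX 6, where 8 listed fibroblast and preadipocyte markers summed to 3094 CPM, and highest in MPX 2, where they summed to 14367 CPM. The orders differed in between: these markers summed to 12886 CPM in CPX 8, with Ctsk at 102.0 CPM, and to 8044 CPM in EA 8, with Ctsk at 297.0 CPM. The part of these markers in the level of Ctsk was not tested. The steadiest gene was Atp6ap1, a pump accessory protein, whose highest library was 1.39 times its lowest.

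**Figure D3:**
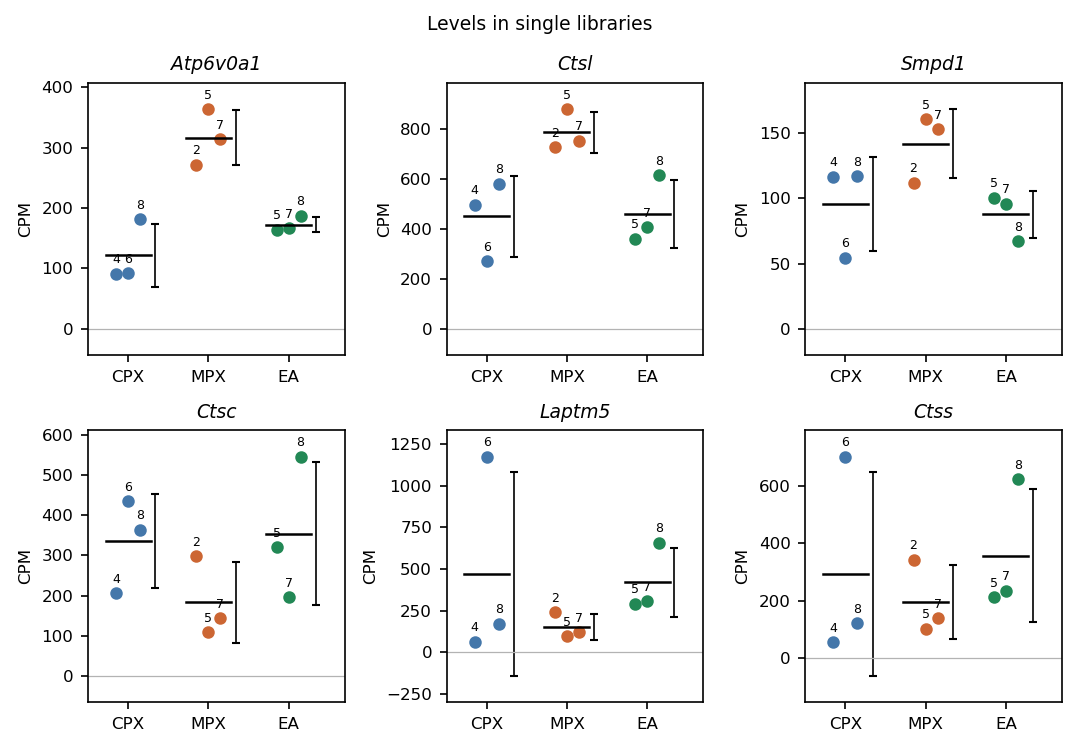
Points give the CPM of 6 genes in single libraries, numbered as in the labels, with a line at the group mean and an error bar of 1 SD (n = 3) beside it; the y axes differ and the SD of Laptm5 and Ctss in CPX exceeds the mean. The 3 MPX libraries lie above all others for Atp6v0a1 and Ctsl, and Laptm5 and Ctss are highest in CPX 6 and EA 8.

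EA was compared with MPX, to ask how tissue after electroacupuncture differs from a group without that label; whether their diets were alike is not labelled. The pump subunit Atp6v0a1, the cysteine protease Ctsl and the sphingomyelin hydrolase Smpd1 were at lower levels in EA, and the membrane protein Laptm5 and the protease Ctsc, which activates serine proteases of immune cells, were at higher levels. None of these differences passed the test. In edgeR's quasi-likelihood test 0 of 35 genes had an adjusted p under 0.05, against 0% of all 3958 genes, and the smallest adjusted p of the 35 was 0.775. At an unadjusted p under 0.05, 1 of the 35 was lower, Atp6v0a1, against 3.01% of all genes, and 0 were higher, against 2.1%. DESeq2 and limma voom called 0 of the 35.

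Atp6v0a1 (ENSMUSG00000019302, mm10 chr11:101009452-101063719, plus strand) encodes the a1 form of the V0 subunit that lines the proton path. It was at 272.0, 363.4 and 313.5 CPM in MPX 2, 5 and 7 and at 164.1, 166.2 and 187.5 CPM in EA 5, 7 and 8. All 3 EA libraries were below all 3 MPX libraries. The log2 difference of EA minus MPX was -0.87 (SE 0.30), 1.83-fold lower in EA (unadjusted p = 0.0185, edgeR adjusted p = 0.775). With EA and MPX alone in the fit, Atp6v0a1 passed (edgeR adjusted p = 0.0474; over all the alternatives it ranged up to 0.998).

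Ctsl (chr13:64359337-64370890, minus strand) was at 727.3, 879.3 and 753.5 CPM in MPX and at 360.6, 406.5 and 614.4 CPM in EA. The groups did not overlap, and the log2 difference was -0.77 (SE 0.36), 1.71-fold lower in EA (unadjusted p = 0.0601). An antisense gene, Gm47123, overlaps 26.8% of its exonic bases, and without a known strand setting the reads of both cannot be told apart. Smpd1 (chr7:105554360-105558389, plus strand) was at 111.8, 160.6 and 152.9 CPM in MPX and at 100.2, 95.7 and 66.9 CPM in EA. These ranges did not overlap either, and the log2 difference was -0.69 (SE 0.33), 1.62-fold lower in EA (unadjusted p = 0.0670). In EA 8, where most hydrolases were highest, Smpd1 was at its lowest level among the EA libraries.

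Laptm5 (chr4:130913125-130936141, plus strand) was the only gene of the 35 with a range higher in EA than in MPX, at 290.3 to 658.7 CPM against 97.2 to 240.6 CPM. Its log2 difference was 1.46 (SE 0.96), 2.75-fold (unadjusted p = 0.166). All 14 listed macrophage markers and all 13 listed B cell markers also had positive differences in this comparison, with medians of 0.68 and 5.88 on the log2 scale. Of the 7 lipid-associated macrophage markers 1 was positive (median -0.40). Ctsc (chr7:88278085-88310888, plus strand) was at 297.7, 108.9 and 143.6 CPM in MPX and at 319.9, 196.4 and 546.0 CPM in EA, with overlapping ranges and a log2 difference of 0.95 (SE 0.51; unadjusted p = 0.0997). Ctsa (chr2:164832873-164841032, plus strand), which protects lysosomal sialidase and galactosidase, was at 308.8, 198.9 and 191.3 CPM in MPX and at 268.2, 262.6 and 440.1 CPM in EA, with 192.9, 324.3 and 207.8 CPM in CPX. Its ranges overlapped and its log2 difference was 0.47 (SE 0.33; unadjusted p = 0.193).

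By role, the differences between EA and MPX were as follows; no test compared the roles. All 3 V1 genes had negative differences (-0.20 to -0.29), as did 3 of 4 V0 genes, and both accessory proteins had positive ones (0.17 and 0.25). The proteases were positive for 6 of 10 (median 0.23), the glycosidases for 3 of 4, the lipid group for 5 of 7 and the membrane proteins for 4 of 5. In all, 21 of 35 differences were positive, with a median of 0.11 on the log2 scale, against 2033 of 3958 positive and a median of 0.012 over all genes. Without EA 8, 12 of 35 were positive, among them 4 of 10 proteases, 1 of 4 glycosidases and 2 of 7 lipid genes, and all 7 V0 and V1 genes were negative. The median was then -0.10. It was also negative without MPX 5 (-0.03, 16 of 35 positive) and without MPX 7 (-0.0014, 17 of 35 positive). In both cases all 7 V0 and V1 genes were again negative. Ranges did not overlap for 1 of 35 genes higher in EA (background 21.5% of all genes) and for 6 lower in EA, or 17.1% (background 19%). The 6 were Ctsl, Smpd1, Npc2, Atp6v0a1, Atp6v0e and Atp6v1h, so the share of the 35 that separated lower was near the background. Without EA 8, 10 of the 35 separated lower (28.6%, background 22%). With column sums in place of TMM, 3 separated higher (background 27.3%) and 5 lower (background 12.5%).

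MPX and CPX, the groups without the EA label, were compared next. This comparison and the one before share the MPX libraries, so their values are given side by side and are not independent. Atp6v0a1 again had the smallest p of the 35 genes: it was at 91.6, 91.8 and 181.5 CPM in CPX 4, 6 and 8, below every MPX library. The log2 difference of MPX minus CPX was 1.38 (SE 0.30), 2.60-fold higher in MPX, and its unadjusted p of 0.00168 was the 14th smallest of 3958 genes. It did not pass the adjustment (edgeR adjusted p = 0.362). DESeq2 called it (adjusted p = 8.2e-04) as the 1 gene of the 35, with 5.1% of all genes called. So did edgeR without CPX 8 (adjusted p = 0.0360), again as the 1 gene of the 35, with 4.24% of all genes called. Over the alternatives the adjusted p ranged up to 0.797. Adipocyte markers summed to 100660, 9071 and 50929 CPM in CPX 4, 6 and 8. Their part in the level of Atp6v0a1 was not tested.

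In the same comparison edgeR called 0 of 35 genes at an adjusted p under 0.05, against 0% of all genes. At an unadjusted p under 0.05, Atp6v0a1 was the 1 gene higher in MPX (background 4.98%), and 0 were lower (background 8.21%). Ctsl was at 498.0, 270.6 and 581.4 CPM in CPX, all below its MPX libraries, with a log2 difference of 0.81 (SE 0.36; unadjusted p = 0.0519). Smpd1 was at 116.4, 54.3 and 116.7 CPM in CPX, and its lowest MPX library lay below CPX 4 and CPX 8 (log2 difference 0.57, SE 0.33; unadjusted p = 0.123). Both genes were lowest in CPX 6 among the CPX libraries. Ctsc was at 206.1, 435.1 and 364.3 CPM in CPX, overlapping MPX, with a log2 difference of -0.87 (SE 0.51; unadjusted p = 0.126). Laptm5 had a log2 difference of -1.62 (SE 0.97; unadjusted p = 0.129) that rested on CPX 6: without it the difference was 0.38. Atp6ap2 (chrX:12587801-12617049, plus strand), the prorenin receptor and a pump assembly factor, was at 98.4, 126.1 and 76.6 CPM in CPX and at 86.2, 72.7 and 73.4 CPM in MPX, with 88.3, 79.2 and 108.9 CPM in EA. Its ranges overlapped (log2 difference -0.37, SE 0.23; unadjusted p = 0.136).

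By role, all 3 V1 genes had positive differences (0.03 to 0.35), as did all 4 glycosidases and 5 of 7 lipid genes. Both pump accessory proteins, 3 of 4 V0 genes (median -0.06) and 4 of 5 membrane proteins had negative ones, and the proteases divided 5 to 5. Of the 35 genes 19 were positive with a median of 0.014, against a median of -0.11 over all genes. Without CPX 6, 1 of the 3 V1 genes and 2 of the 4 glycosidases were negative, and without CPX 4 all 4 V0 genes were positive. Ranges did not overlap for 4 genes higher in MPX, or 11.4% (background 8.46%): Ctsl, Atp6v0a1 and the V1 genes Atp6v1a and Atp6v1b2, which form the catalytic core with its ATP-binding sites. Atp6v1a was at 163.1, 131.4 and 150.4 CPM in CPX and at 193.3, 177.6 and 174.6 CPM in MPX, a log2 difference of 0.29 (SE 0.19; unadjusted p = 0.152). Atp6v1b2 was at 221.0, 201.7 and 172.4 CPM in CPX and at 271.6, 234.4 and 251.5 CPM in MPX, a log2 difference of 0.35 (SE 0.22; unadjusted p = 0.142). These were differences of 1.23-fold and 1.27-fold. The 1 gene with a lower range in MPX (background 7.71%) was Asah1, the acid ceramidase, at 180.2 to 192.1 CPM in CPX and 104.0 to 178.2 CPM in MPX. The count of 4 higher genes was 7 without CPX 6 (20%, background 14.9%) and 9 without CPX 4 (25.7%, background 19.9%); the count of lower genes was 4 (background 14.9%) and 2 (background 19.6%). With column sums it was 6 higher (background 13.4%) and 0 lower (background 3.06%).

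EA and CPX were the last pair compared. The gene with the smallest p was Atp6v0e, a small V0 subunit, at 342.1, 158.0 and 150.1 CPM in CPX and at 132.6, 129.7 and 129.6 CPM in EA, with 140.5, 165.0 and 174.7 CPM in MPX. All 3 EA libraries lay below all 3 CPX libraries, but CPX 4 was far above the other two. The log2 difference of EA minus CPX was -0.73 (SE 0.32), 1.66-fold lower in EA (unadjusted p = 0.0513, edgeR adjusted p = 0.997), and -0.23 without CPX 4. Atp6v0e (chr17:26676396-26699644, plus strand) was the 1 gene of the 35 with a range lower in EA (background 5.08%), and 0 were higher (background 2.1%). The higher count depended on the scaling: it was 1 (Scarb2, background 4.32%) under upper quartile scaling and 4 (Hexa, Lipa, Scarb2 and Atp6v1a, background 5.91%) with column sums.

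Lgmn (chr12:102394084-102439813, minus strand), an asparagine-specific protease that processes cathepsins, was at 92.8, 227.6 and 167.4 CPM in CPX and at 229.5, 182.1 and 622.8 CPM in EA, with 371.5, 160.5 and 152.8 CPM in MPX. Its ranges overlapped and EA 8 was the highest of the 9 libraries; the log2 difference was 1.08 (SE 0.58; unadjusted p = 0.0990) and 0.34 without EA 8. Lipa (chr19:34492318-34527474, minus strand), the acid lipase that frees fatty acids and cholesterol from stored lipid, was at 77.9, 119.7 and 124.4 CPM in CPX and at 136.2, 118.6 and 288.1 CPM in EA, with 286.5, 122.3 and 129.9 CPM in MPX. It was also highest in EA 8, with a log2 difference of 0.75 (SE 0.45; unadjusted p = 0.134), and 0.25 without EA 8. Grn (chr11:102430315-102437048, plus strand), the progranulin precursor, was at 245.1, 483.9 and 450.0 CPM in CPX and at 520.1, 439.3 and 799.9 CPM in EA, with 617.7, 420.3 and 415.7 CPM in MPX (log2 difference 0.58, SE 0.37; unadjusted p = 0.152). Scarb2 (chr5:92441314-92506833, minus strand), which carries glucocerebrosidase to the lysosome, was at 219.4, 197.3 and 261.3 CPM in CPX and at 282.0, 260.6 and 315.5 CPM in EA, with 275.9, 245.8 and 246.9 CPM in MPX. The lowest EA library was just below the highest CPX library, and the log2 difference was 0.34 (SE 0.20; unadjusted p = 0.132). Atp6v0a1 had a log2 difference of 0.50 (SE 0.30; unadjusted p = 0.128), and CPX 8 lay within the EA range.

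Here edgeR called 0 of the 35 genes at an adjusted p under 0.05, against 0% of all genes. At an unadjusted p under 0.05, 0 were higher and 0 lower, against 0.96% and 2% of all genes. DESeq2 and limma voom called 0 of the 35. All 10 proteases and all 4 glycosidases had positive differences, with medians of 0.18 and 0.43, the lipid group divided 4 to 3, and 4 of 5 membrane proteins were negative. In all 24 of 35 were positive with a median of 0.097, against 1543 of 3958 and a median of -0.093 over all genes. The total and the protease count rested most on EA 8: without it, 14 of 35 genes and 3 of 10 proteases were positive. All 4 glycosidases were still positive without it (3 of 4 without CPX 6). With CPX 4, 6 or 8 left out in turn, 8, 7 and 7 of 10 proteases were positive. In this comparison 13 of 14 listed macrophage markers had positive differences (median 0.60), and 8 of 15 adipocyte markers did (median 0.03). Without CPX 6, ranges separated for 8 genes higher in EA (22.9%, background 18.4%) and 5 lower (14.3%, background 16.9%). Without CPX 4, 2 separated higher (5.71%, background 6.06%) and 1 lower (2.86%, background 9.2%). Without EA 8, 0 separated higher (background 4.3%) and 2 lower (5.71%, background 7.5%).

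**Figure D4:**
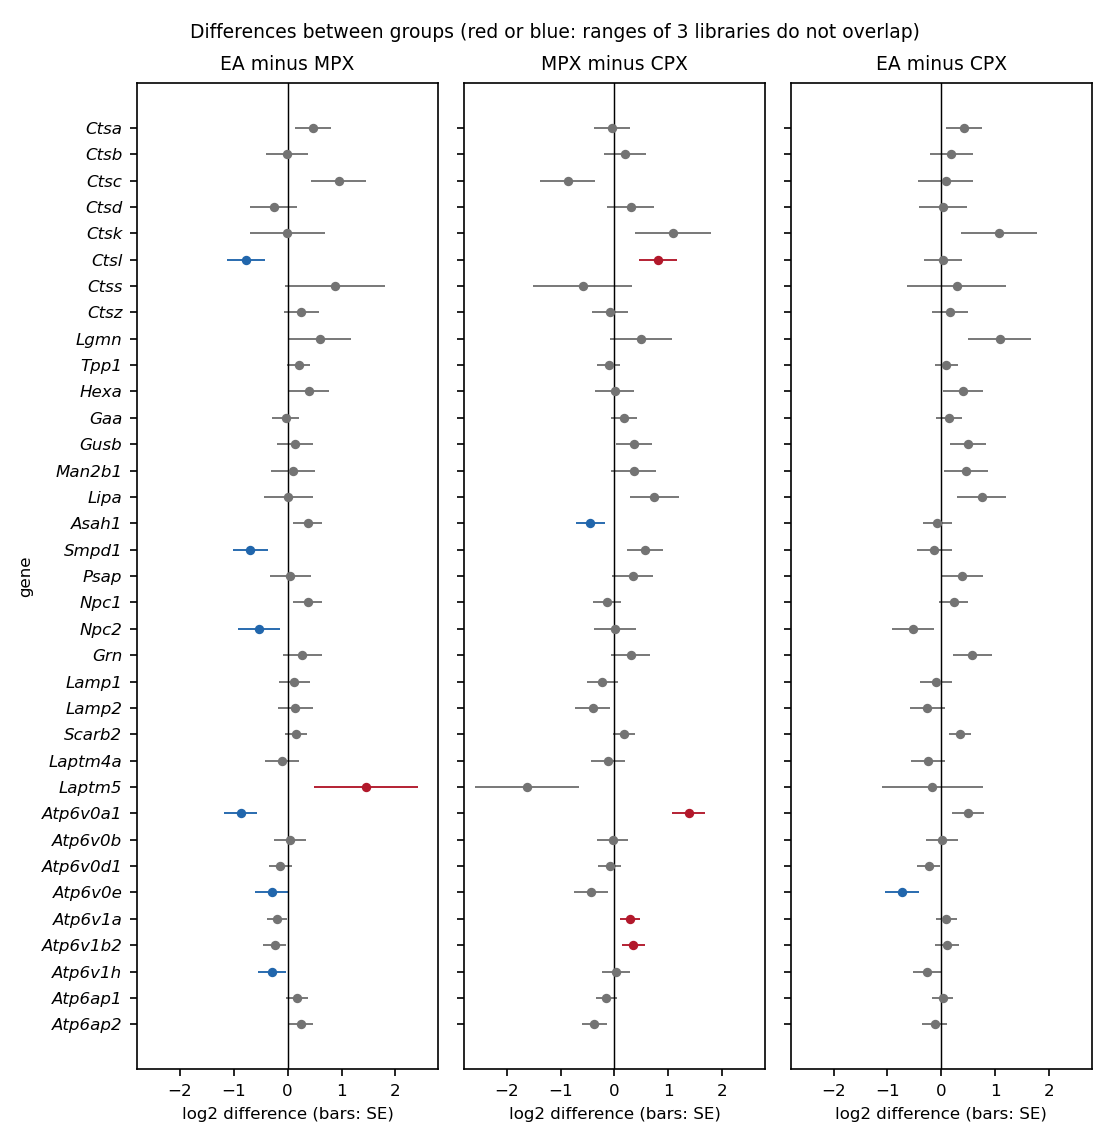
Points give the log2 difference of each of the 35 genes in the 3 comparisons, with bars of 1 SE derived from edgeR's test. Red marks a first-named group whose 3 libraries all lie above the other group, blue one whose libraries all lie below, and grey an overlap. Atp6v0a1 and Ctsl are blue in EA minus MPX and red in MPX minus CPX, and only Atp6v0e is coloured in EA minus CPX.

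Genes that work alongside these 35 were read from 6 lists. Of 38 other lysosomal hydrolases and activators 18 were listed, of 28 other membrane, transport and sorting genes 16, of 17 other pump subunits 6, of 24 autophagy genes 17, of 22 regulators of lysosomal genes and of mTORC1 docking 9, and of 9 cathepsin inhibitors 3. In none of the lists did edgeR call a gene in any of the 3 comparisons. The autophagy genes were negative for 13 of 17 in EA minus MPX (median -0.21) and positive for 11 of 17 in MPX minus CPX (median 0.25). Adipocyte markers were negative for 12 of 15 (median -0.51) and positive for 11 of 15 (median 0.40) in the same comparisons. All 7 endothelial markers were negative in the first (median -0.28) and positive in the second (median 0.57); the part of either was not tested. Atg12, which is joined to Atg5 when autophagosomes form, averaged 92.5 ± 13.7 CPM in MPX, 64.1 ± 2.22 in EA and 75.6 ± 11.3 in CPX (EA minus MPX -0.53, SE 0.19; unadjusted p = 0.0219). Atg13, of the kinase complex that starts autophagy, averaged 86.1 ± 6.20 CPM in MPX against 63.4 ± 1.90 in CPX (0.44, SE 0.16; unadjusted p = 0.0205). Rb1cc1, of the same complex, averaged 77.9 ± 4.81 CPM in EA against 98.7 ± 16.3 in CPX.

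Among the other hydrolases, 10 of 18 differences were positive in EA minus MPX, 8 in MPX minus CPX and 9 in EA minus CPX. Plbd2, a phospholipase B-like protein, averaged 183.0 ± 13.2 CPM in MPX against 114.4 ± 25.7 in CPX (0.68, SE 0.20; unadjusted p = 0.00905, edgeR adjusted p = 0.362). Smpdl3a, a relative of Smpd1, averaged 181.1 ± 7.35 CPM in MPX and 130.6 ± 5.40 in EA, and these ranges did not overlap (-0.47, SE 0.23; unadjusted p = 0.0683). Gm2a, which presents ganglioside to the enzyme encoded in part by Hexa, averaged 223.5 ± 36.9 CPM in EA and 324.6 ± 65.3 in CPX. Among membrane proteins, Laptm4b averaged 125.5 ± 6.36 CPM in MPX and 89.7 ± 22.8 in EA, and the chloride transporter Clcn7 averaged 62.3 ± 15.2 CPM in CPX and 80.9 ± 5.21 in MPX. Flcn, a regulator of the Rag proteins that dock mTORC1 on the lysosome, averaged 90.6 ± 5.33 CPM in EA against 67.8 ± 10.9 in MPX (0.42, SE 0.18; unadjusted p = 0.0497). Rptor, the mTORC1 subunit raptor, averaged 91.9 ± 6.71 CPM in MPX and 74.6 ± 13.6 in CPX. The cathepsin inhibitor Cstb averaged 66.0 ± 28.9 CPM in CPX, 82.3 ± 3.96 in MPX and 66.0 ± 12.6 in EA, and its ranges overlapped. Cst3, an inhibitor that is secreted, averaged 1100 ± 461 CPM in CPX and 922 ± 52.6 in EA.

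Of the 6 listed pump genes outside the 35, Tcirg1 is a relative of Atp6v0a1. It encodes the a3 form of the same V0 subunit and averaged 60.3 ± 25.4 CPM in CPX, 77.2 ± 18.8 in MPX and 126.4 ± 81.1 in EA. The EA mean rested on EA 8, at 219.7 CPM, against 73.4 and 86.0 CPM in EA 5 and EA 7, within the MPX range of 61.8 to 98.1 CPM. Its differences were 0.71 (SE 0.47; unadjusted p = 0.166) in EA minus MPX and 1.07 (SE 0.47; unadjusted p = 0.0522) in EA minus CPX, where that of Atp6v0a1 was -0.87 and 0.50. Dmxl1, which takes part in pump assembly, averaged 85.9 ± 2.69 CPM in MPX against 138.7 ± 76.3 in CPX. Of the 6 genes 4 were positive in EA minus MPX and 4 were negative in MPX minus CPX.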

How the data were processed

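The authors deposited unnormalized read counts, with a column for each library beside the name, position and length of every gene, per the file headers. The submitters' processing notes name HISAT2 2.0.5 and mm10. No source used here names the program that counted reads, its strand setting or the annotation release. The table holds the 3958 genes of highest total (8471 counts or more) and ends inside its last row, so genes below that level were not analysed here. Of the 35 genes, 33 have the same coordinates in GENCODE M21. Gene model overlap above 10% of exonic bases affects Ctsd, Ctsl, Ctsb, Hexa, Atp6v0b and Ctsa.

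The test was edgeR's (version 4.0.16, R 4.3.3): 1 fit of 9 libraries with a mean per group, TMM scaling, filterByExpr (which removed no gene) and robust quasi-likelihood estimation, tested on simulated data. Adjustment was by Benjamini-Hochberg across all genes in a contrast, with a threshold of 0.05. The biological coefficient of variation was 40.1%. Fold changes are those of the fit. The SE was derived from the test, as the absolute log2 difference divided by the square root of its F statistic. CPM is printed with the sample SD. No replicate pair held near-identical counts. Alternatives were other scalings and filters, DESeq2 1.42.0, limma voom (limma 3.58.1), only the groups compared, estimation that is not robust, the replicate number as a block, and each library left out.

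The genes and lists were chosen with earlier results of these data known, and support nothing by their choice. Named with values in every library were the 6 genes of smallest p in each contrast and the 5 of highest level per length, and, by group means, in each other list the gene of smallest p, up to 6 per contrast. The library values of Ctss, Ctsk, Npc2, Atp6v1a and Atp6v1b2, and the name of Atp6v0a2, are given because they were singled out after being seen.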

Additional observations from a re-analysis of the deposited data

How the results depend on the processing

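For EA minus MPX, edgeR called 0 genes and DESeq2 called 49. With only the groups compared edgeR called 84 (2.12% of all genes), 1 of the 35 (Atp6v0a1). With 1 library left out it called 0 to 23 (23 without CPX 6). The replicate block gave 6 calls, 0 among the 35. With this block the difference rests on the libraries numbered 5 and 7, the only numbers that MPX and EA share, and little is left to estimate the spread. Deviations of same-numbered libraries from their group means had correlations of 0.0204 (MPX 5 and EA 5), 0.127 (MPX 7 and EA 7) and -0.506 (CPX 8 and EA 8). With means of 3 libraries these values cannot show whether such libraries share more than a number, and the labels do not say. For MPX minus CPX, DESeq2 called 201 genes (5.1% of all), 1 of the 35 (Atp6v0a1). Leaving out 1 library gave 0 to 168 genes and 0 to 1 of the 35. The 168 (4.24% of all) and the 1 came without CPX 8. For EA minus CPX, DESeq2 called 5 genes, and leaving out 1 library gave 0 to 12 (12 without CPX 6). With 1 library left out, positive differences numbered 12 to 24 of 35 in EA minus MPX and 14 to 27 in EA minus CPX, the lowest in both without EA 8. With column sums in place of TMM the median of the 35 was 0.19 in MPX minus CPX and 0.32 in EA minus CPX. Over all genes, the median shift of a gene's log2 difference was then 0.10 in MPX minus CPX and 0.20 in EA minus CPX. Under upper quartile scaling these shifts were 0.094 and 0.12. The MPX minus CPX difference of Laptm5 reversed to 0.38 without CPX 6 (range -2.10 to 0.38). The filters removed no gene, so they say nothing about stability. The causes were not tested. Column sums are not depths, so the limit set by sequencing depth is unknown, and the replicate spread limits what 3 libraries a group can show.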

Other observations

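The spread between libraries differed by group. Among the 35 genes the median coefficient of variation was 32.9% in CPX, 15.6% in MPX and 21.5% in EA, against 43.0%, 10.8% and 14.9% over all listed genes. In CPX the steadiest of the 35 was Asah1 (3.28%) and the most variable Laptm5 (130.6%). In EA they were Atp6v0e (1.31%) and Lgmn (70.2%), and in MPX Ctsd (2.51%) and Ctss (66.4%).

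The genes with and without CACGTG in the RefSeq window were set side by side as a description. The 10 genes with it had a median difference of -0.09 on the log2 scale in EA minus MPX, 4 of 10 being positive, and the 20 without it had a median of 0.15, 15 of 20 being positive. In MPX minus CPX the medians were 0.07 and 0.01, and in EA minus CPX 0.04 and 0.23. Among the 20 without it were Laptm5, Ctsk and Ctss, whose levels had the widest range over the 9 libraries.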
